A study of Arabidopsis thaliana with 8 samples.

Results

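Moderate CONSTANS (CO) peaks inside protein-coding genes were examined in Arabidopsis thaliana seedlings. A peak is a stretch of the genome where chromatin immunoprecipitation followed by sequencing (ChIP-seq) recovered more DNA than the local background. The members were chosen by the authors' fold enrichment and by the position of the summit, the highest point of a peak. A member had a fold enrichment over background below 15 and a summit between the annotated start and end of a nuclear protein-coding gene. In all, 1121 of the 3210 nuclear peaks in the authors' filtered list met the rule, out of 3214 peaks in that list. They lay in 1080 of 27444 genes.

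From each of 2 genotypes, 2 anti-CO immunoprecipitates and 2 input samples were taken, 8 samples in 4 groups. The 35S:CO plants express CO from a strong viral promoter that is active in most tissues, and the lists do not show in which cells binding occurred. The control genotype was co-10, a CO mutant. Seedlings of both were collected 7 days after germination in long days and fixed with 1% formaldehyde and 1 mM DSG, a protein-protein crosslinker. Each genotype had 1 pooled peak list, so no value below has a spread between replicates and none carries a test. The read depth of the samples is unknown here, since the lists hold peaks alone.

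CO is a nuclear protein with B-box zinc fingers and a carboxy-terminal CCT domain. It contacts DNA together with NF-Y subunits, and in long days it activates FT, the gene of the mobile flowering signal, in the leaf vasculature. CO protein accumulates in the light at the end of a long day, which ties flowering to photoperiod. Transcription starts at one end of a gene and terminates at the other, and regulators are best known for binding around the start. The gene table used here gave both ends of each gene but not its strand, so a distance to the nearer end covers starts and terminators alike.

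The co-10 list did not lack signal at CO itself. Its strongest peak had its summit inside CO at a fold enrichment of 63.9, against 9.13 for the next nuclear co-10 peak. The overlapping 35S:CO peak had a value of 15.3, and the filtered list held no summit in CO or within 1000 bp of it. All 92 peaks of the 35S:CO list that are absent from the filtered list overlapped a co-10 peak, and no filtered peak did. Members therefore overlap none by the making of the list, and 4 members lay within 1000 bp of one.

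Member summits gathered close to the ends of genes. The median distance from a summit to the nearer end was 195 bp, with an interquartile range from 84.0 to 470 bp, over 1138 pairs of a summit and a gene. Of these pairs, 333 (29.3%) had the summit within 100 bp of an end and 583 (51.2%, Wilson 95% interval 48.3 to 54.1) within 200 bp. The first 200 bp from either end made up 14.8% of the bases of the same genes. Within 500 bp the share was 76.1% of summits against 36.5% of bases, and within 1000 bp it was 90.2% against 65.9%. The intervals cover counting error only.

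**Figure D1:**
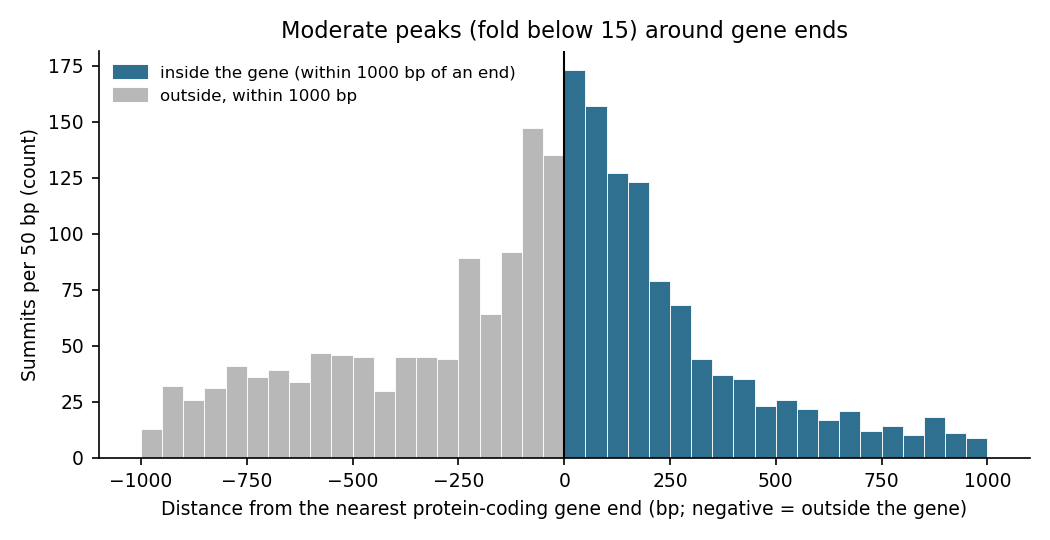
Number of moderate summits (fold enrichment below 15) per 50 bp, by distance in bp from the nearest end of a protein-coding gene; summits inside genes are to the right of 0 and those outside within 1000 bp to the left. Inside genes the bars count pairs of a summit and a gene, so a summit inside 2 genes counts once for each. The highest bin holds 173 pairs in the first 50 bp inside the gene, and the bin from 450 to 500 bp inside holds 23. The bin just outside the end holds 135 summits.

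Scaled to the length of the gene, 599 pairs (52.6%) fell within 10% of the length from an end, where an even spread would put 20%. The next class, from 10 to 20% of the length, held 221 pairs, and the 3 inner classes held 121, 93 and 104. The central class thus did not stand below its neighbour.

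In-gene peaks of the same list with a fold enrichment of 15 or more had a like distribution. Their median distance to the nearer end was 156 bp, and 60.2% (interval 50.8 to 68.9) of 108 pairs lay within 200 bp, an interval that overlaps that of the members. The control list also had a larger share of summits than of bases near gene ends, but both shares were smaller than for members. It had 55 summits inside protein-coding genes, 17.6% of its 312 nuclear peaks, which made 58 pairs in 46 genes. Of these pairs 29.3% (19.2 to 42.0) lay within 200 bp of an end, against 9.95% of the bases of those genes. For members the shares were 51.2% and 14.8%. Within 500 bp of an end the co-10 share was 43.1% of pairs against 23.2% of bases, and for members 76.1% against 36.5%. The part of gene length in the difference between the lists was not tested. The median distance in co-10 was 681 bp. The class nearest to an end held 22.4% of the co-10 pairs and the central class 24.1%. The genotype lists also differed in length, with 3306 peaks in 35S:CO and 380 in co-10, so genotype and depth of calling cannot be told apart here.

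**Figure D2:**
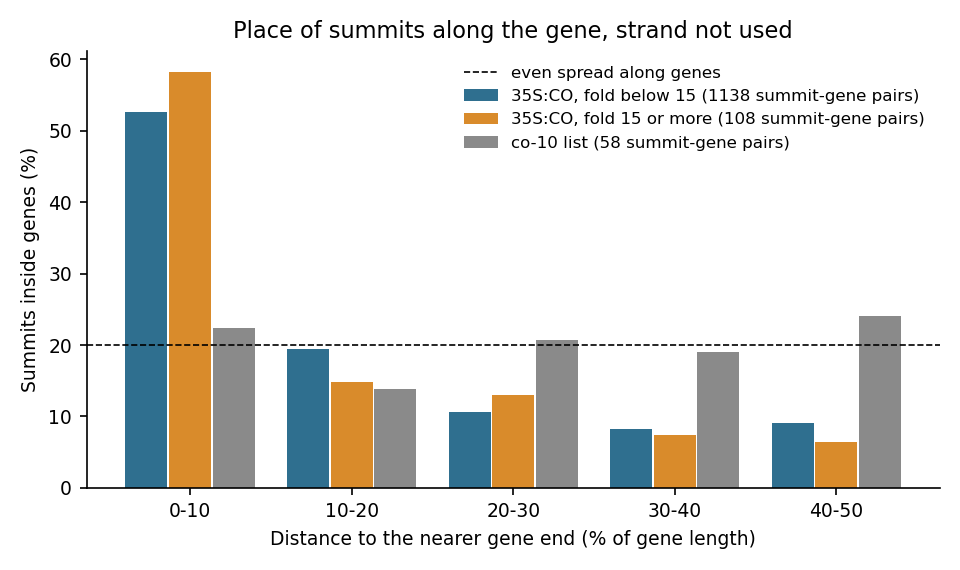
Share of in-gene summits in 5 classes of distance to the nearer gene end, in percent of gene length, for members, for 35S:CO peaks of fold 15 or more and for the co-10 list; the dashed line is an even spread of 20%. Members reach 52.6% in the outermost class and 9.14% in the central class, while the co-10 bars run from 13.8% to 24.1%.

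Many peaks crossed the gene end. In 607 pairs (53.3%) the peak reached past an end of the gene, and in 531 (46.7%) the whole peak lay inside. Peaks past an end had a median fold enrichment of 5.80 and a median width of 491 bp. The values for peaks wholly inside were 4.37 and 385 bp. For the former the summit alone placed the peak in the gene.

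A neighbouring gene was often near. Among the 1104 members inside a single gene, the next protein-coding gene lay within 500 bp of the summit for 261 (23.6%) and within 1000 bp for 449 (40.7%). The summit was nearer to that neighbour than to the nearer end of its own gene in 74 cases. A further 17 members lay inside 2 overlapping genes. One of these was the peak at WNK4, which encodes a WNK-family kinase, and AT5G58340. At another, the ends of GR1, which encodes glutathione reductase, and AT3G24180 overlapped, and the summit was 6 bp inside one and 7 bp inside the other. Such a summit cannot be given to one of its genes.

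Strength within the set was skewed to low values. The median fold enrichment was 4.83, with an interquartile range from 4.0 to 6.97 and a lowest value of 2.33. A fold enrichment below 5 was recorded for 604 members (53.9%), and 103 (9.19%) reached 10 or more. The upper limit of 15 is the rule itself. The median pileup, the count of sequenced fragments stacked at the summit as recovered from the deposited values, was 19 (interquartile range 15 to 29, highest 73), over a median background of 3.09 fragments. At such counts a few fragments set the order of the weaker members. Across the 1121 peaks of 1 pooled list, the fold enrichment had a Spearman's rho of 0.91 with the pileup and of -0.06 with the background. Pileup and background were both solved from the fold enrichment and the p-value. The background varied little (interquartile range 2.77 to 3.49), so a high value for the pileup is built in.

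Peak width had a median of 440 bp and an interquartile range from 345 to 557 bp. The narrowest width, 297 bp, was shared by 87 members. At the other end, 38 members were wider than 1000 bp. Width rose with fold enrichment (rho 0.68 across the members), and both come from the same pileup.

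The other moderate peaks were set beside these values. The 1081 peaks in flanks, with a summit outside genes but within 1000 bp of one, had a median fold enrichment of 5.70 and a median width of 473 bp. For the 707 peaks farther away the values were 4.78 and 422 bp. Members were thus nearer to the distant peaks than to the flanking ones in both measures. Between 3 and 4 in fold enrichment, 44.1% (40.1 to 48.2) of nuclear filtered summits lay inside genes and 26.3% in flanks. From 10 to below 15 it was 32.1% (27.2 to 37.4) inside and 47.7% in flanks. Among peaks of 15 or more, 35.2% lay inside genes. The share inside genes did not change steadily with fold enrichment. It was 32.1% from 5 to below 6, 38.7% from 6 to below 8, 44.4% (35.4 to 53.8) from 20 to below 30 and 28.3% from 30 up. Over all nuclear filtered summits the share inside genes was 38.2%. It was 59.0% and 58.7% after moving the summits by 5000 bp to either side, so summits inside genes were fewer than at the moved positions.

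Stronger members lay nearer to gene ends. The median fold enrichment was 5.41 within 100 bp of an end, 5.19 beyond that up to 200 bp, 4.52 up to 500 bp and 4.49 up to 1000 bp. Seen the other way, 39.3% (33.5 to 45.4) of pairs with a fold enrichment from 3 to 4 lay within 200 bp of an end, against 66.3% (56.5 to 74.9) from 8 to 10 and 60.4% (50.9 to 69.2) from 10 to 15. The relation was loose across single summits, with a Spearman's rho of -0.17 over the 1138 pairs. It did not continue deep inside genes: the 111 pairs over 1000 bp from an end had a median of 4.55, and 13 of them (11.7%) reached 10 or more, as did 37 (11.1%) of those within 100 bp.

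Just below the limit of 15, the peak in AT3G51140 reached 14.996, with 58 fragments stacked against an expected 2.93. On chromosome 3 it ran from 18999227 to 19000992 (TAIR10). Next came SNRK2-8 (AT1G78290), which encodes a kinase of the SnRK2 family of osmotic stress signalling, at 14.9 with a summit 151 bp from the gene end. The peak in GBSS1 (AT1G32900), the granule-bound starch synthase that makes amylose, had 14.8. As the rule counts it, its summit was 0 bp from one annotated end of the gene. Counting the summit from 1 would put it just inside or just outside that end. The GBSS1 peak covered 11923496 to 11924517 on chromosome 1.

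PSBR, a subunit of photosystem II, had a fold enrichment of 14.8 from 73 fragments, the highest pileup of the set. CDSP32, a drought-induced thioredoxin-like protein of the chloroplast, had 14.8 as well. HEMA1, the glutamyl-tRNA reductase at the entry to chlorophyll synthesis, had 14.5 with the summit 26 bp from an end. BAM1, a beta-amylase of starch breakdown, had 14.4.

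DREB1A, also named CBF3, a transcription factor that switches on cold-induced genes, had a fold enrichment of 14.6 (chromosome 4, 13018434 to 13019700). The summit lay 144 bp from an end of this gene of 1391 bp. Its relative CBF1 had an in-gene peak of 15.1, just above the limit. KIN2, a small cold-induced protein, had 14.3. The remaining peaks of the highest 12 were those shared by WNK4 and AT5G58340 (14.4), in DL1, which encodes a dynamin-related protein (14.3), and in PTF1, a TCP-family transcription factor also called TCP13 (14.2). The in-gene peaks next above the limit were in PLP5 (15.1), a patatin-like lipase, in CBF1 and in CGLD27 (15.2), a conserved gene of the green lineage.

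At the low end stood AT5G39160, with a fold enrichment of 2.33, GER2 (2.52), a germin-like protein, and AT2G21340 (2.53). The first 2 of these had pileups of 20 and 23 fragments, close to the median of 19, over backgrounds of 8.0 and 8.54, the latter the highest of any member. Germin-like genes have near-identical copies, so the placement of reads at GER2 is uncertain. The widest members were in MAPKKK13 (2537 bp), AT1G58602 (2423 bp), UNE10 (2368 bp), AT3G51140 (1766 bp) and AGP17 (1730 bp). MAPKKK13 encodes a kinase at the top of a mitogen-activated cascade, UNE10 a bHLH protein and AGP17 an arabinogalactan protein of the cell surface. In MAPKKK13 the peak (2195139 to 2197675) was longer than the gene of 2056 bp but did not cover it. The other member of that gene (2194256 to 2194910) lay outside this peak.

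Most genes held a single member. There was 1 member in 1026 genes, 2 in 50 and 3 in 4, and no gene had more. The genes with 3 were NIA2, CCR1, TDT and AT3G49220. NIA2 encodes the main nitrate reductase of the plant, and its summits lay 105, 820 and 1669 bp from the nearer end with fold enrichments of 6.35, 3.55 and 4.83. In CCR1, a cinnamoyl-CoA reductase of lignin synthesis, they were 7.20, 4.83 and 3.25 at 708, 1220 and 780 bp. TDT, the malate carrier of the vacuole membrane, had values of 5.60, 5.37 and 3.99. In AT3G49220 the values were 11.2, 3.38 and 3.04, so 1 peak stood well above the other two.

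For 848 member genes (78.5%) that peak was the sole filtered summit inside the gene or up to 1000 bp away. Another 155 genes (14.4%) also had one of another class there, and 34 (3.15%) had one of fold 15 or more. Genes with a member were somewhat longer than genes in general, with a median length of 2364 bp against 2078 bp. In 5 length classes of nearly equal size, the share of genes with a member was 1.84% in the shortest class, 4.12%, 4.10% and 4.85% in the next 3, and 4.77% in the longest. The share varied little by chromosome, from 3.70% of the genes of chromosome 3 to 4.08% on chromosome 5.

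Of all protein-coding genes, 3.94% held a member, and 5.15% did so among the 11411 genes to which the table gives a name. With any filtered summit inside the gene or up to 1000 bp away counted, the shares were 11.2% and 14.2%. The counts for lists and kinds of gene below are read against these shares. The lists and kinds were chosen with earlier results of these data known, so their intervals cover counting error only and test nothing. Kinds were assigned by words in gene names, so genes without a name are in none of them, and genes whose names lack the words are left out of their kind. Among the members so left out were DREB1A and UNE10 (13.3), which encode transcription factors, the kinase gene WNK4, the transporter gene ABCG22 (11.5) and the glucosyltransferase gene UGT74D1 (10.5), picked after their values were seen.

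Photosynthesis genes had the highest share among the kinds with 20 or more genes. Of 85 genes named for photosystems, chlorophyll, light harvesting, Rubisco or plastocyanin, 29 held a member (34.1%, Wilson 95% interval 24.9 to 44.7), each at a summit of its own. With any filtered summit in or within 1000 bp of the gene, 50 of the 85 counted (58.8%). Their member peaks were of ordinary strength, with a median fold enrichment of 5.04 against 4.83 for the other member pairs, and 14 of the 29 were below 5. Their place was closer to the gene ends. The summit lay within 200 bp of an end in 24 of 29 pairs (82.8%, 65.5 to 92.4), against 50.4% (47.5 to 53.3) of the other 1109 pairs. These genes are short, and that distance covered 24.9% of their bases, against 14.7% in the others.

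By role, 10 of the 29 were photosystem II genes, with fold enrichments from 3.81 to 14.8. PSBR led them, followed by NPQ4 (13.1), which encodes the PsbS protein of energy-dependent quenching. NPQ4 also had the most distant summit of the 29, 1420 bp from the nearer end of a gene of 3207 bp. PSBW (7.38), PSBX (7.05) and the oxygen-evolving proteins PSBP-1 (5.22) and PSBO2 (4.23) had summits between 82 and 226 bp from an end. Of the genes named as photosystem I subunits, PSAL (6.64), PSAF (6.01), PSAE-2 (4.15) and PSAH-1 (3.82), each had the summit between 62 and 108 bp from an end. PSI-P, also named CURT1B and a protein of thylakoid curvature, carries a photosystem I subunit name as well, and had 7.72 at 218 bp.

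Light-harvesting genes were the weakest of these roles. The 9 with a member ranged from 2.96 to 5.56, with a median of 3.98. They included LHCB2.2 (5.56), LHCB4.3 (5.04), LHCB3 (4.65), LHCA3 (4.32), LHCA4 (3.98) and LHCB6 (3.93), the chlorophyll-binding antenna proteins of the photosystems. Lowest were CAB1 (3.0) and CAB3 (2.96). RBCS3B (9.72) and RBCS1B (6.13), copies of the Rubisco small subunit gene, had summits 57 and 7 bp from an end. CAB1 and CAB3, like RBCS1B and RBCS3B, belong to families of near-identical copies, so the placement of their reads is uncertain. These genes, apart from the 3 first by strength (PSBR, NPQ4 and RBCS3B), were named after their values were seen.

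**Figure D3:**
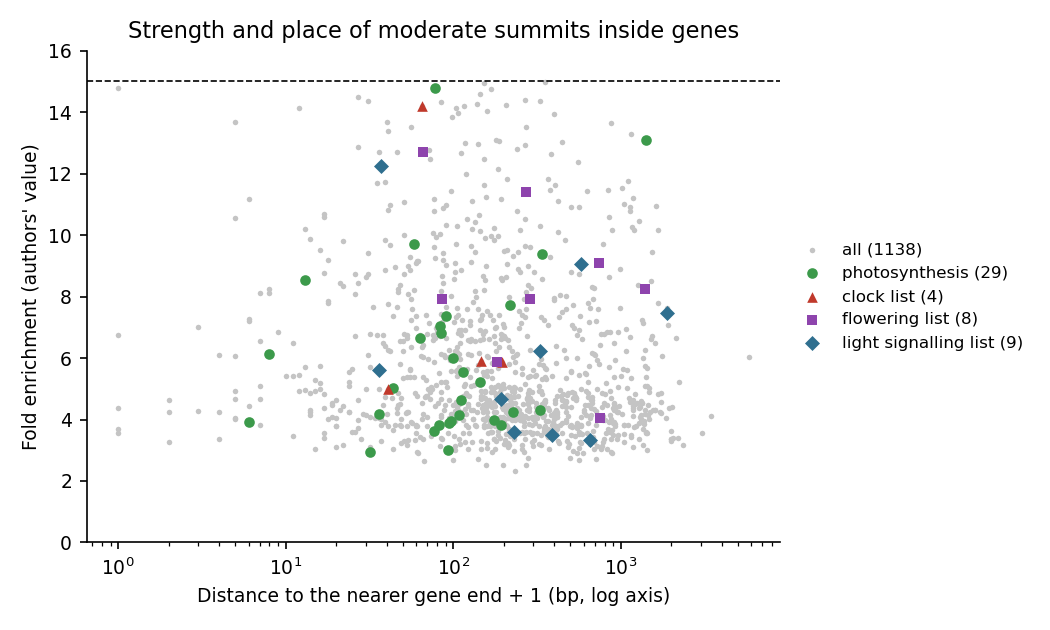
Fold enrichment of each member against the distance in bp of its summit from the nearer gene end plus 1, on a log axis, for 1138 summit-gene pairs; coloured points mark photosynthesis genes and the clock, flowering and light signalling lists, and the dashed line is the limit of 15. At 200 bp or less lie 24 of 29 photosynthesis points, 3 of 8 flowering, 3 of 9 light signalling and 4 of 4 clock points. The farthest photosynthesis point is at 1420 bp, the farthest flowering point at 1401 bp and the farthest light signalling point at 1899 bp.

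Other kinds were closer to the share of named genes. Among genes matched by the words, transporter genes held members in 28 of 298 cases (9.40%, 6.58 to 13.2), and the strongest of those matched were the zinc transporter ZIP11 (13.1), the nucleobase transporter PDE135 (11.7) and UMAMIT36 (10.6). Transcription factor genes did so in 41 of 761 (5.39%, 4.0 to 7.23), with PTF1, SOC1 and BBX24 the strongest of those matched. Kinase and phosphatase genes counted 16 of 321 (4.98%), with SNRK2-8, MAPKKK13 (12.1) and the kinase SR1, also named CIPK14 (9.85), the strongest of those matched. For cytochrome P450 genes it was 12 of 232 (5.17%), with no value above 7.23, in CYP71B2, followed by CYP89A2 (6.90) and CYP72A15 (6.76). Glycosyltransferase and glycosidase genes had 7 of 110 (6.36%), with BGLU40 (8.63), UGT75B1 (4.58) and BGLU18 (4.50) the strongest of those matched.

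Small counts were found for the remaining kinds. There were 4 of 140 auxin-related genes (2.86%), 2 of 71 heat shock or chaperone genes (2.82%), 2 of 31 F-box genes (6.45%) and 1 of 4 genes named for leucine-rich repeats. With any filtered summit in or near the gene, 26 auxin-related (18.6%), 9 heat shock or chaperone (12.7%) and 5 F-box genes (16.1%) counted, against 14.2% of named genes. The auxin-related genes are short, with a median length of 1046 bp. None of 68 ribosomal protein genes held a member. A limit of 3 counts allows up to 4.41%, above the 3.94% of all protein-coding genes and below the 5.15% of named ones. The Wilson interval, as used for the other kinds, reaches 5.35%, above both shares. Whether the share of ribosomal protein genes is below that of named genes is thus not settled. With any filtered summit in or near the gene, 7 of the 68 ribosomal protein genes counted (10.3%). Counts of 0 were also found for 13 pentatricopeptide repeat genes and 26 genes named for unknown domains, and no gene matched the words for histones.

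**Figure D4:**
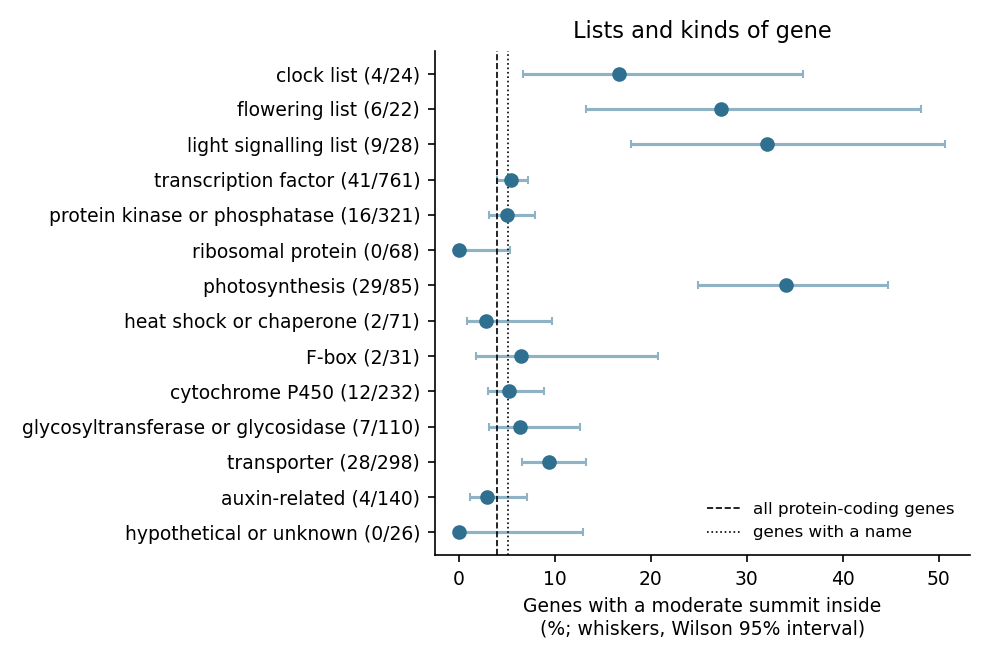
Percent of the genes of each list or kind (20 or more genes) that hold a member, with Wilson 95% intervals as whiskers and the counts beside the names; the dashed line is the share of all protein-coding genes (3.94%) and the dotted line that of named genes (5.15%). Photosynthesis (34.1%), light signalling (32.1%), flowering (27.3%), clock (16.7%) and transporter (9.40%) lie to the right of both lines with their whole interval. The lists and kinds were chosen with earlier results of these data known, so this position is a description and not a test.

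Of 24 clock genes, 4 held a member (16.7%, 6.68 to 35.9), while 16 had any filtered summit inside or up to 1000 bp away. The 4 were RVE7 (14.2), ZTL (5.91), RVE6 (5.88) and GI (5.0). RVE7 and RVE6 are MYB-like proteins of the REVEILLE family. ZTL is a blue-light receptor that directs clock proteins to degradation, and GI is the large nuclear protein that binds ZTL. The summits lay 64, 146, 195 and 40 bp from the nearer end, within 200 bp in each of the 4. GI also had a separate filtered summit of 15.2 outside this set. Clock genes with a strong summit in or near the gene, such as LHY (29.4) and RVE8 (43.6), held no member.

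In the flowering list, 6 of 22 genes held a member (27.3%, 13.2 to 48.2), with 8 summits among them. SOC1, a MADS-box activator of flowering downstream of FT, had a peak of 12.7 from 62 fragments, 65 bp from an end. SVP, a MADS-box repressor of FT and SOC1, had a pair of summits, of 7.92 at 85 bp and of 8.24 at 1401 bp from the nearer end. CDF5 and CDF3 encode DOF-type repressors of CO and FT transcription. CDF5 had 11.4, and CDF3 had 5.87 and 4.06, beside stronger filtered summits of 25.7 and 28.7 outside the set. COL2 (9.09) and COL1 (7.91) are the closest relatives of CO, and their summits were 738 and 287 bp from an end. COL1 also had another filtered summit, of 8.18, outside the gene within 1000 bp. FT itself held no member: its filtered summit, of 10.5, lay outside the gene within 1000 bp. Neither did CO, TSF, FLC, AP1 or LFY.

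Light signalling genes held a member in 9 of 28 cases (32.1%, 17.9 to 50.7). BBX24 (12.2, 36 bp) and BBX22 (5.60, 35 bp) encode B-box proteins of seedling greening and had summits near the gene end. The blue-light receptors PHOT2 (9.08, 580 bp) and PHOT1 (7.47, 1899 bp) had theirs inside long genes of 9287 and 7490 bp. The phytochrome interacting factors PIF5 (6.23) and PIF4 (4.67) had summits at 328 and 192 bp. Lower values were found at PHYE (3.6), a phytochrome, and at RUP2 (3.49) and RUP1 (3.34), which damp ultraviolet-B signalling. RUP1 also had a stronger filtered summit, of 10.3, outside the gene within 1000 bp. In this list 3 of 9 summits lay within 200 bp of an end, in the flowering list 3 of 8 and in the clock list 4 of 4.

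The list genes are longer than most, with median lengths of 3299 bp for the clock, 2684 bp for flowering and 3668 bp for light signalling. The part of gene length in their shares was not tested. With a −log10 q of at least 10, the share of all protein-coding genes with a member was 1.58%. At that limit 2 clock, 6 flowering, 5 light signalling and 12 photosynthesis genes counted.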

How the data were processed

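The values were 3 peak lists in narrowPeak format. The fold enrichment is a ratio that the authors deposited, as are the −log10 p-value and −log10 q-value of each peak. The deposited summit offset is another column, in bp. Bowtie, MACS2 and the build TAIR10 are named in the submitters' processing notes; versions, settings and the filter are not given in the sources used here. Peak names carry "both", so replicates were treated as pooled by the authors. Sequencing depth cannot be read from these lists, and no genome sequence was used here, so no motif or sequence is reported and the planned position along the strand was replaced by the distance to the nearer end.

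The summit was start plus offset. Genes and names came from RefSeq assembly TAIR10.1, whose coordinates are not printed. The peaks were set on it after a check: 38.2% of nuclear filtered summits lay inside protein-coding genes, against 59.0% and 58.7% after moving them by 5000 bp to either side. Peak coordinates are as deposited, counted from 1. Pileup and background were solved from fold = (pileup + 1) / (background + 1) and a Poisson p-value. All 3210 nuclear filtered peaks were solved within 0.001 in −log10 p; the solver was tested on simulated data. These values rest on the assumed formula.

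Members, the 3 gene lists (74 genes, all matched by identifier) and the 14 kinds were chosen with earlier results of these data known. Named genes were the 12 strongest members, those next to the limit, the lowest 3, the 5 widest, genes with 3 members, list genes with a member, CO, FT and the 3 strongest of each kind with 5 or more member genes; the rule's 3 narrowest could not be told from other members of the same width and are not named; other named genes were picked after their values were seen. Capital-letter name words were matched at word starts. Wilson 95% intervals treat genes or summits as independent, which neighbours are not. The limit for a count of 0 is 3 counts. Python 3.11.15, pandas 2.3.3 and scipy 1.17.1 were used.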

Additional observations from a re-analysis of the deposited data

How the results depend on the processing

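No paired analysis was possible because the lists pool the replicates, 1 list for a genotype. Nor could any replicate be left out. The motif and oriented-position alternatives were not run. Of 74 alternatives, 48 stayed within the interval of the value or within 1.5 times the count, and 26 did not. Stricter limits keep fewer peaks by construction. A −log10 q of at least 10 left 438 members in 434 genes, with 2 clock and 5 light signalling genes, 21 transcription factor, 7 kinase or phosphatase, 12 photosynthesis, 18 transporter, 5 cytochrome P450, 1 glycosyltransferase, 1 heat shock, 0 F-box and 0 leucine-rich repeat genes. Its share within 500 bp of a gene end was 81.1% and within 200 bp 62.2%, with a median fold of 7.66 and a median width of 553 bp. At a −log10 q of at least 5 the values were 78.8%, 56.2%, 5.84 and 487 bp, with 0 F-box genes. A fold limit of 10 gave medians of 4.65 and 420.5 bp. Requiring the whole peak inside a gene left 525 members. Taking 200 bp in place of 500 bp gave 51.2%. Using the midpoint of the peak moved no result past these bounds. Counting the summit from 1, an alternative chosen with the 200 bp shares after seeing the data, gave 1119 members. With pileups near 19 fragments, weak members rest on small counts.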

Other observations

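Members far inside genes were a small group of 111 pairs in 106 genes, over 1000 bp from either end, in genes with a median length of 3728 bp. The 13 with a fold enrichment of 10 or more were picked after their values were seen. They included the bHLH gene UNE10 (13.3), NPQ4 (13.1), ABCG22 (11.5), which encodes an ATP-binding cassette transporter, and CSLG1 (10.9), a cellulose synthase-like gene. Regulators among them were KNAT6 (10.9), a homeobox gene of meristems, TIFY7 (10.8), also named JAZ9, a jasmonate signalling repressor, and SPL10 (10.3), of the phase change family of SBP-box factors. The summit farthest from an end lay 5810 bp inside AT1G58602, a gene of 19695 bp, at a fold enrichment of 6.04.

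Genes with both a member and a co-10 summit numbered 5, out of 46 genes with a co-10 summit inside. Of all protein-coding genes, 1080 of 27444 (3.94%) held a member. The filtered list holds no peak that overlaps a co-10 peak, which can lower the count of shared genes. The 5 shared genes were AT1G20400, AT1G58602, AT2G15420, AT5G32590 and AT5G39770, for which the table gives no name. The strongest member in each had a fold enrichment from 3.56 to 6.04, and the strongest co-10 summit one from 4.01 to 5.28. None was in the gene lists, and genes without a name could not be in the kinds.

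Of the members, 35 also lay inside an annotation of another class, 26 of them in a long non-coding RNA gene. Another filtered summit lay within 1000 bp of 115 members (10.3%), and the median distance to the next filtered summit was 7078 bp.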
